A study of Mus musculus with 2 samples.

Results

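Cells of proliferative urothelial organoids with the highest combined level of Fmo2, Agr2, Ifitm1, Cyp2f2, Jag1 and Dapl1 were examined. Each cell received a score, the mean over these 6 genes of ln(1 + 10000 × UMI / total UMIs of the cell), where a UMI (unique molecular identifier) stands for 1 counted RNA molecule. The members were the 15% of cells with the highest score, 1023 of the 6818 cells kept from the proliferative library, and of 11714 kept cells in all. The other 5795 cells of that library are called the rest.

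The urothelium is the layered lining of the bladder, with basal cells at its base, intermediate cells above them and umbrella cells that carry uroplakin plaques on the side facing the urine. Organoids are clusters of such cells grown in gel. They were derived from unsorted urothelial cells of wild-type (WT) C57BL/6 mice of 8 to 10 weeks and were dissociated for droplet-based single-cell RNA sequencing (10x Genomics 3′ chemistry). Proliferative organoids (P) were kept in complete medium with EGF, WNT3A, RSPO1, Noggin and the TGF-β receptor inhibitor LY2157299, and differentiated organoids (D) in medium without these 5 additions. Each condition held 1 library, so that no p-value or standard error could be given. All intervals are at 95% and cover counting error only, not the difference between cultures.

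In P, 28921755 UMIs were deposited over 8194 barcodes, and in D 22949953 UMIs over 6975 barcodes. Barcodes with over 800 detected genes and at most 12% mitochondrial UMIs were kept, 83.2% of P and 70.2% of D, and 6 barcodes occurred among the kept cells of both libraries. Members had a median of 3689 UMIs and 1205 genes per cell and the rest 3360 UMIs and 1141 genes. The median mitochondrial share was 6.56% in members and 5.70% in the rest. Among the 5% of cells with the most UMIs were 7.62% of the members and 4.54% of the rest. Without this 5% of cells, 34 genes were at least 2-fold higher in members than in the rest and 275 were lower. With all kept cells these counts were 35 and 279. The part of this difference in the shares of cells given below was not tested.

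The genes of the score have separate roles. Fmo2 encodes a flavin-containing monooxygenase and Cyp2f2 a cytochrome P450 enzyme. Both oxidise foreign compounds, and Cyp2f2 is best known from the club cells of the airway. Agr2 is a protein disulfide isomerase of the endoplasmic reticulum that takes part in folding secreted mucins. Ifitm1 belongs to the interferon-induced transmembrane proteins, which restrict the entry of viruses. Jag1 is a ligand of the Notch receptors, by which a cell signals to its neighbours. Dapl1, a relative of death-associated protein, is known from stratifying and differentiating epithelia.

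To show the start sites of 3 of these genes, the 250 bases before the transcription start of Agr2, Fmo2 and Dapl1 are given from RefSeq promoter windows (build GRCm38.p6, 5′ to 3′ on the strand of the gene). Capitals mark the match to TGTTTNC, the core letters bound by FOXA factors, or its reverse complement. Among the motifs searched, these letters matched the most score genes, and only the 3 genes with a match are shown. Foxa1, an urothelial transcription factor, was among the genes with a higher level in members. A link between its level and these letters was not tested.
Agr2, chr12:35992675-35992924, plus strand: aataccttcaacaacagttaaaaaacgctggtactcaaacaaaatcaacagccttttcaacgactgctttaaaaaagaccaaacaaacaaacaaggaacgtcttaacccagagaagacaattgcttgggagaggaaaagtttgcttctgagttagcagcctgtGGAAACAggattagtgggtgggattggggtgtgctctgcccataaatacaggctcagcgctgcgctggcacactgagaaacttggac
Fmo2, chr1:162898494-162898743, minus strand: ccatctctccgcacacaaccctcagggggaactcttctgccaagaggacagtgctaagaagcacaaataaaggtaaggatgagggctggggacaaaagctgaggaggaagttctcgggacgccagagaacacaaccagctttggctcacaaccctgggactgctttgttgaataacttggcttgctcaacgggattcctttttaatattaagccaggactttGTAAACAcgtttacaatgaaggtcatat
Dapl1, chr2:59484403-59484652, plus strand: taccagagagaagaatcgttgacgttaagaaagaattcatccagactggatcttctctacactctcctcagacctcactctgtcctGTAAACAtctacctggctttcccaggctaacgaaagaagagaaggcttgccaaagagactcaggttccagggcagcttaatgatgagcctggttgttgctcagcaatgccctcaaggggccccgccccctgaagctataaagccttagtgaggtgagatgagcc

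The first base of the match lay 87 bases before the start site in Agr2, 28 in Fmo2 and 164 in Dapl1. RefSeq gave a further window for Fmo2 that held no match, as did the windows of Ifitm1, Cyp2f2 and Jag1. On either strand these letters occur in 17.8% of the 32851 windows of this length. Of the 9 leading genes outside the score described below, 7 had a window and 0 of these held the letters. The letters TGGGAA of the Notch effector RBPJ occurred in the windows of Ifitm1 and Dapl1 and in 21.6% of all windows. Letters of the factors AP-1, GRHL and TEAD and of the interferon element ISRE were also searched. They occurred in 0 of the 6 score genes, and in 6.75%, 1.79%, 12.6% and 2.98% of all windows. Matches are descriptions of the sequence and not binding sites.

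The label of these cells, Fmo2 and Agr2, fitted only some of them. A UMI of Fmo2 or Agr2 was found in 396 members (38.7%, exact binomial interval 35.7 to 41.8%) against 199 cells of the rest (3.43%, 2.98 to 3.94%). Of the members, 517 (50.5%) had no UMI of Fmo2, Agr2 or Cyp2f2, and 23 (2.25%) had all 3. The commonest combination was Ifitm1 with Dapl1, in 211 members (20.6%), followed by Ifitm1, Jag1 and Dapl1 in 153 and Jag1 with Dapl1 in 108 (10.6%). Just 8 members carried all 6 genes, whereas 452 carried 2 and 369 carried 3. The cells are therefore named by their score and not as a cell type.

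The score set no natural border. The lowest member score was 0.561 and the highest score outside was 0.5605, with 171 members and 241 other cells within 0.05 of this threshold. The last cell inside had 8 UMIs of Jag1 and Dapl1 among 8134, and the first cell outside had 4 UMIs of the same genes among 4075. The median score was 0.754 in members and 0.203 in the rest, the highest was 2.02, and 2510 cells (36.8%) scored 0. When all cells were thinned to 2100 UMIs, 729 of the 1004 members deep enough (72.6%) were again in the top 15%.

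The values of the 6 genes chose the members, and their contrast is a description. Levels are UMIs per 1000000 UMIs summed over cells (CPM). Agr2 stood at 91.9 CPM in members and 5.0 in the rest. Cyp2f2 stood at 113 and 6.49 CPM, and Fmo2 at 72.1 and 5.36 CPM. The ratios on the log2 scale were 4.20, 4.12 and 3.75. Ifitm1 had 655 CPM in members and 79.3 in the rest, a log2 ratio of 3.05. Jag1 and Dapl1 differed least, with log2 ratios of 1.88 and 1.72.

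To see each gene in cells that it had not helped to choose, the top 15% were taken again by the score of the other 5 genes. Agr2 then had a log2 ratio of 2.82 (2.57 to 3.08) and was found in 17.4% of the chosen cells and 2.66% of the others. The log2 ratio of Cyp2f2 was 2.40 (2.17 to 2.62) and that of Fmo2 2.01 (1.73 to 2.28). It was 1.34 (1.26 to 1.43) for Ifitm1, 0.78 (0.62 to 0.95) for Jag1 and 0.71 (0.63 to 0.79) for Dapl1. All 6 intervals lay above 0, and the 3 genes of detoxification and folding kept larger ratios than the 3 others. The 6 genes had been put together with earlier results of these data known, so that these ratios too are a description. Chosen cells and others come from the same library and share its free RNA.

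At equal depth (2100 UMIs per cell), genes of the score were detected together to different degrees. Among the 191 cells with Cyp2f2, Agr2 was found in 41 (21.5%, 15.9 to 28.0%), against 2.39% (2.03 to 2.79%) of cells without Cyp2f2. Ifitm1 was found in 47.1% of the cells with Cyp2f2 and 18.6% of those without. Fmo2 was found in 9.42% (5.68 to 14.5%) and 2.71% (2.33 to 3.14%). Fmo2 and Agr2, the pair in the label, overlapped less. Agr2 was detected in 10 of the 193 cells with Fmo2 (5.18%, 2.51 to 9.32%) and in 2.87% (2.48 to 3.31%) of those without, and the intervals of both shares overlapped. Jag1 was found in 17.1% (12.1 to 23.2%) of cells with Fmo2 and 11.4% (10.6 to 12.2%) of those without.

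Members were spread over the clusters of the P library. Clustering with Seurat, on settings of the study, gave 4 clusters, with 37.7%, 37.3%, 19.8% and 5.22% of the cells. Cluster 0 was led by Ctla2a, Nbl1 and Sparc, cluster 1 by the cornified envelope genes Sprr3, Cnfn and Sprr2f, cluster 2 by Fmo2, Mmp7 and Agr2, and cluster 3 by the cell division genes Ccna2, Hmmr and Nusap1. Cluster 2 held 468 members (45.7%) and cluster 1 held 446 (43.6%), while 94 were in cluster 0 and 15 in cluster 3. Members made up 34.7% (32.2 to 37.3%) of cluster 2, 17.6% of cluster 1, 3.65% of cluster 0 and 4.21% of cluster 3. Because Fmo2, Agr2, Ifitm1 and Jag1 were themselves among the 10 leading genes of cluster 2, its share of members is a description.

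The genes differed in where they were detected at equal depth. Fmo2 was found in 9.05% of cells of cluster 2 and 1.70% of cluster 1. Cyp2f2 was about as frequent in both, with 5.35% (4.21 to 6.71%) and 4.52% (3.74 to 5.40%), and stood at 0.163% in cluster 0. Agr2 was found in 6.33% of cluster 2, 4.04% of cluster 1 and 0.204% of cluster 0. Ifitm1 had a share of 29.5% in cluster 2 and similar shares of 16.8%, 17.2% and 15.8% in clusters 0, 1 and 3, so that a UMI of Ifitm1 alone says little of the kind of cell. Whether free RNA gave this even level was not tested.

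**Figure D1:**
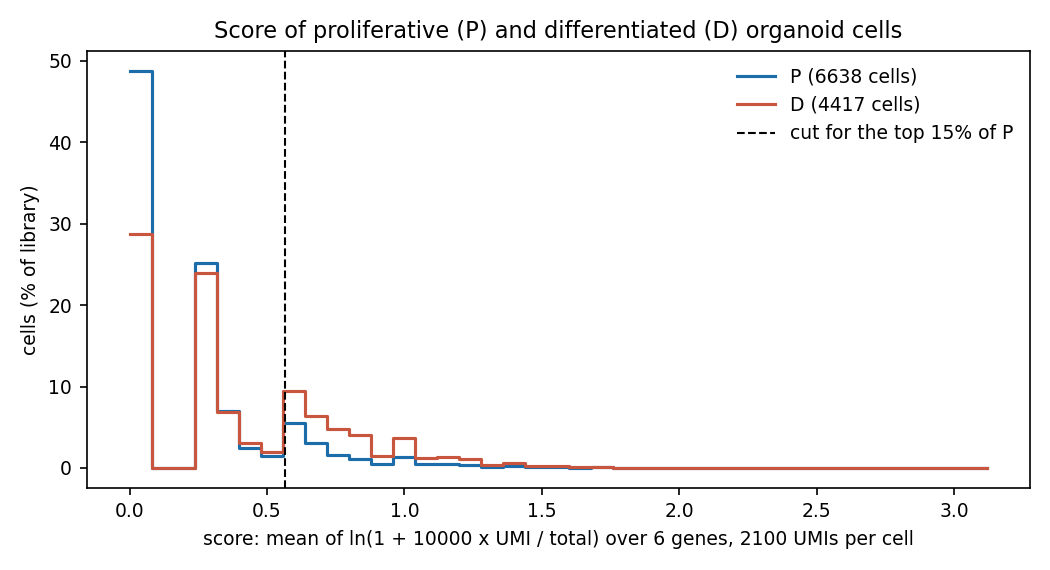
Share of cells (%, vertical axis) by score (horizontal axis, bins of equal width) in the P and the D library, with each cell thinned to 2100 UMIs. The broken line is the threshold for the top 15% of P, at 0.564. The empty range next to 0 follows from whole UMI counts, and 35.4% of the D cells lie at or over it.

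Of 9486 genes with at least 100 UMIs in P, 35 (0.369%) were at least 2-fold higher in members than in the rest, 29 of them outside the score, and 279 (2.94%) were at least 2-fold lower. The median log2 ratio over these genes was −0.04. Since the rest is a mixture, each gene was also set against the non-member cells of each cluster. Against cluster 0, 332 of 7499 genes (4.43%) were at least 2-fold higher and 391 (5.21%) lower. Against cluster 1 these were 50 of 7770 (0.644%) and 139 (1.79%). Against cluster 2 they were 116 of 5795 (2%) and 5 (0.0863%), and against cluster 3 they were 255 of 5420 (4.7%) and 475 (8.76%). Only 11 genes were at least 2-fold higher than in the non-members of every cluster, 5 of them genes of the score. The other 6 were Ccr2, Cxcl15, Smim6, Neurl3, Naip5 and Tspan13. At least 2-fold here is a size, not a test.

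Ccr2 led the genes outside the score. It encodes a receptor for the chemokine CCL2 that is best known from monocytes. Members held 461 UMIs of Ccr2 and the rest 338, or 103 and 15.2 CPM, a log2 ratio of 2.75 (2.55 to 2.96). A UMI of Ccr2 was found in 22.7% of members and 3.24% of the rest. The log2 ratio was 6.79 against non-members of cluster 0, 1.95 against cluster 1, 2.89 against cluster 2 and 2.90 against cluster 3. Markers of leukocytes were scarce in P. Of 8 such markers, 3 had 0 UMIs in all kept P cells and Ptprc (CD45) had 1. The 8 together had 31 UMIs, 6 of them in members, or 1.33 CPM in members and 1.13 in the rest. Whether the cells with Ccr2 carried them was not tested.

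**Figure D2:**
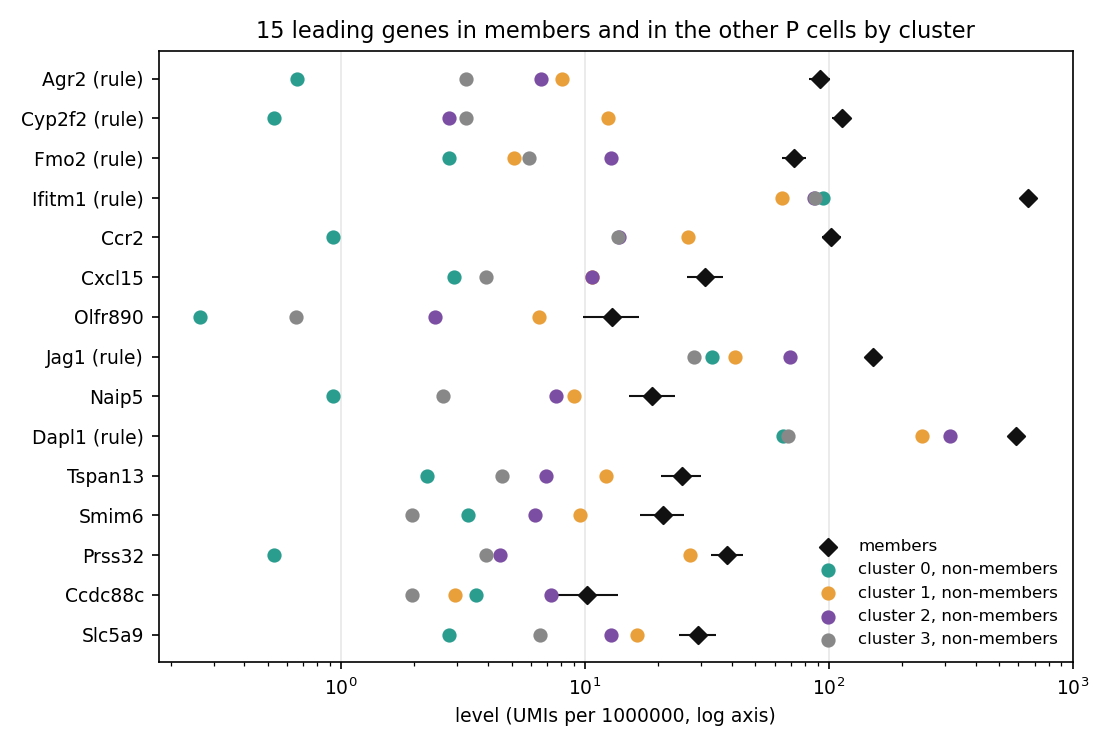
Level (UMIs per 1000000, log axis) of the 15 genes with the highest ratio, in members (diamonds, with exact Poisson intervals) and in the non-members of each cluster (dots). Genes of the score are marked as rule. Members lie above each of the 4 groups of non-members for all 15 genes, with Prss32 at 38.3 CPM in members and 27.1 in cluster 1 as one of the closest.

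Ccr2 went with the number of score genes detected, at equal depth. It was found in 1.27% (0.910 to 1.71%) of cells with 0 of the 6 genes and 3.26% (2.59 to 4.04%) of cells with 1. The share was 7.77% (5.92 to 9.97%) with 2 genes and 24.1% (19.0 to 29.9%) with 3 or more. The levels were 7.64, 22.6, 55.5 and 177 CPM, and the counting intervals of neighbouring groups did not overlap. Since Ccr2 had been picked for its ratio in these same cells, its rise with the score genes is a description. By cluster the share was 0.245% in cluster 0, 5.59% in cluster 1, 6.49% in cluster 2 and 1.17% in cluster 3. The median depth before thinning was 2875 UMIs in cluster 0 and 4263 in cluster 1. Of the 191 cells with Cyp2f2, 63 (33.0%, 26.4 to 40.1%) carried Ccr2, against 2.70% of those without. For Agr2 the shares were 23.6% and 2.96%, and for Fmo2 they were 7.25% (4.02 to 11.9%) and 3.46% (3.03 to 3.94%).

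**Figure D3:**
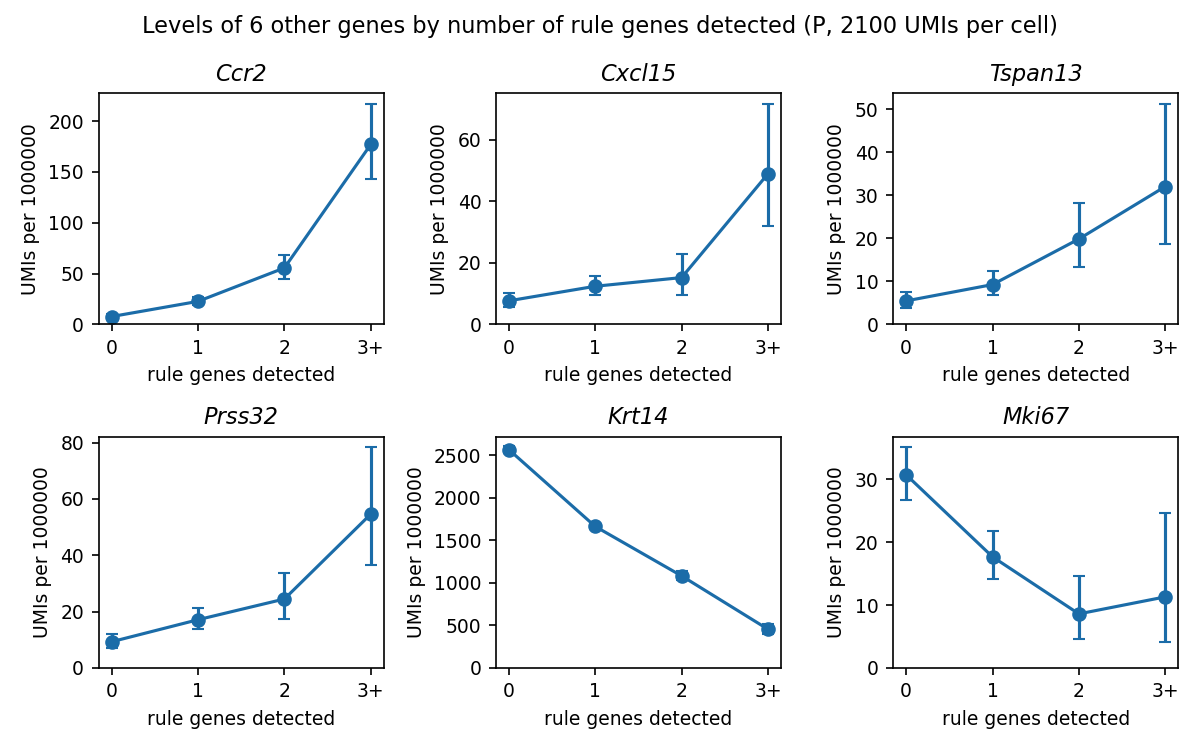
Level (UMIs per 1000000, from 0, with exact Poisson intervals) of 6 genes outside the score in P cells grouped by how many of the 6 score genes were detected, at 2100 UMIs per cell (3239, 2425, 721 and 253 cells). Ccr2 goes from 7.64 to 177 CPM from left to right, Krt14 from 2566 to 454 CPM, and the intervals of Mki67 overlap between 2 and 3 or more genes.

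Cxcl15, a chemokine for neutrophils known as lungkine from the airways, had 140 UMIs in members and 168 in the rest. Its levels were 31.1 and 7.57 CPM, a log2 ratio of 2.04 (1.71 to 2.37). Genes of varied roles followed. Tspan13, a tetraspanin, stood at 24.9 and 7.57 CPM with a log2 ratio of 1.72 (1.36 to 2.07). Slc5a9, a sodium-coupled sugar transporter, stood at 29.1 and 10.5 CPM, and Prss32, a serine protease, at 38.3 and 13.5 CPM. Smim6, a small membrane protein, stood at 20.9 and 6.45 CPM, and Ccdc88c at 10.2 and 3.65 CPM. Neurl3, a ubiquitin ligase, had 48 UMIs in members and 99 in the rest, a log2 ratio of 1.26 (0.73 to 1.77). Naip5, a sensor of bacterial flagellin with near-identical copies beside it, and the olfactory receptor gene Olfr890 had log2 ratios of 1.75 and 1.91, and reads shared with copies make both uncertain. Tspan13 (chromosome 12, 36014557 to 36042500, minus strand, GRCm38) is a neighbour of Agr2 (chromosome 12, 35992907 to 36004087, plus strand).

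The UMIs that choose a cell also enter its levels. Each UMI was therefore assigned at random to one of 2 sets, with members chosen on 1 set and levels taken from the other. Among 9486 genes, 40 (0.422%) were then at least 2-fold higher. Of the 9 leading genes outside the score, 8 were among them, and Slc5a9 had a log2 ratio of 0.81 (0.30 to 1.29). The 9 had been picked on all UMIs of the same cells, the measured set included, so that this count is a description. Ccr2 had a log2 ratio of 2.53 (2.25 to 2.83) and Cxcl15 of 1.66 (1.16 to 2.15). Agr2 and Cyp2f2 stood at 3.26 and 3.2, and Jag1 at 0.90 (0.67 to 1.12).

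The 506 members with Fmo2, Agr2 or Cyp2f2 and the 517 without were also set against the rest separately. Ccr2 had a log2 ratio of 3.33 in the former and 1.39 in the latter. Cxcl15 had log2 ratios of 2.78 and −0.47, on opposite sides of 0, and Tspan13 gave 2.33 and 0.16. Naip5 gave 2.32 and 0.41. Smim6 gave 1.93 and 1.35 and Slc5a9 1.57 and 1.32, so that these differed little between the sets. Krt14 was lower in both, at −2.38 and −1.15. The difference between both sets was not tested, and 286 cells of the rest (4.94%) also had a UMI of 1 or more of the 3 genes.

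Xenobiotic enzymes other than Fmo2 and Cyp2f2 mostly did not share the pattern. Of 9 further flavin and cytochrome oxidases with at least 20 UMIs, 1 was at least 2-fold higher in members and 0 were lower, with a median log2 ratio of 0.09. Among 11914 genes with at least 20 UMIs, 1.21% were at least 2-fold higher and 5.89% lower, with a median of −0.05. Outside the score, the interval lay above 0 for 8.28% of them and below 0 for 14.2%, shares that also depend on how abundant the genes are. Cyp1b1 stood at 0.57 (−0.01 to 1.13) and Por, which passes electrons to cytochrome P450 enzymes, at −0.11 (−0.24 to 0.02). Over 30 aldehyde, alcohol and conjugating enzymes the median was 0.08. Against the non-members of clusters 0, 1, 2 and 3 it was 0.75, −0.25, 0.45 and 0.84. Of the 30, 2 were at least 2-fold higher than in the rest and 1 was lower. The higher ones were Adh7, an alcohol and retinol dehydrogenase, with a log2 ratio of 2.89 (1.84 to 3.98) on 35 UMIs, and Akr1c18, a hydroxysteroid dehydrogenase, with 1.5 (0.86 to 2.12). Aldh1a7 stood at 59.4 and 31.3 CPM, a log2 ratio of 0.92 (0.71 to 1.13). Gsta4 and Gsto1, glutathione transferases, stood at 0.36 and −0.04.

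Secretory genes of other mucosae were mostly scarce. Of 28 listed, 10 had 0 UMIs in P and 8 outside the score reached 20 UMIs, of which 1 was at least 2-fold higher and 2 lower. Wfdc2, a secreted protease inhibitor, stood at 2905 CPM in members and 1716 in the rest, a log2 ratio of 0.76 (0.73 to 0.79). Lypd2 had 6.67 and 3.02 CPM, a log2 ratio of 1.14 (0.47 to 1.79). Scgb1a1, the club cell secretoglobin, had 48 UMIs in all kept P cells and a log2 ratio of 0.38 (−0.79 to 1.41), and Slpi stood at −1.10 (−1.56 to −0.68). Of 24 genes of protein folding in the endoplasmic reticulum, where Agr2 acts, 0 were at least 2-fold higher and 1 was lower, with a median of 0.11. The lower one was the oxidase gene Ero1l, at −1.05 (−1.16 to −0.94), while Hspa5 stood at 0.13 (0.01 to 0.24) and Selenos at 0.51 (0.31 to 0.70).

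Of the 4 Notch ligands other than Jag1, 2 reached 20 UMIs, and both lay lower in members than in the rest. Jag2 stood at 15.6 CPM in members and 40.5 in the rest, a log2 ratio of −1.38 (−1.75 to −1.03). Dll1 stood at 1.78 and 9.65 CPM, a log2 ratio of −2.44 (−3.67 to −1.43). The rest was no even background for them, since Jag2 stood at 82.2 and 83.6 CPM in non-members of clusters 0 and 3 but at 17.7 in cluster 2, close to the members, and at 9.51 in cluster 1, below them. Dll1 stood at 22.9, 1.37, 2.08 and 13.7 CPM in clusters 0 to 3. The ligand-like inhibitor Dlk2 stood at −2.31 (−3.13 to −1.59). Of the Notch target genes, 3 of 8 reached 20 UMIs and the intervals of all 3 against the rest lay above 0. The median of the 3 was 2.32 against non-members of cluster 0 and 1.06 against cluster 3, but −0.04 against cluster 1 and −0.19 against cluster 2, the clusters that held most members. The 3 genes were Hes1, a transcriptional repressor, at 938 and 671 CPM (log2 ratio 0.48, 0.43 to 0.53), Nrarp, a feedback inhibitor, at 0.33 (0.09 to 0.56), and the receptor gene Notch3 at 0.51 (0.25 to 0.77). Of 12 receptors and modulators, 0 were at least 2-fold higher and 1 was lower, with a median of −0.04, and Notch1 stood at 0.14 (0.01 to 0.27).

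Of 5 IFITM genes beside Ifitm1, 1 was at least 2-fold higher and the median log2 ratio was 0.58. Ifitm3 stood at 2331 CPM in members and 1564 in the rest (log2 ratio 0.58, 0.54 to 0.61), and Ifitm6 at 6.67 and 1.58 CPM (log2 ratio 2.08, 1.33 to 2.83). These genes are close copies of each other, so that reads may have been split between them. Interferon-induced genes in general differed little. Of 17 with at least 20 UMIs, 1 (Oasl2, on 23 UMIs) was at least 2-fold higher and the median was 0.18. Isg15 stood at −0.04 (−1.13 to 0.90). The median over 11 antigen presentation genes was 0.05.

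Proliferation genes were lower in members. Of 12 listed, 10 were at least 2-fold lower and 0 higher, with a median log2 ratio of −1.93. Ccnb1, a mitotic cyclin, had 2.0 CPM in members and 15.4 in the rest, and Cdk1, its kinase, 4.45 and 26.4 CPM. At equal depth, 16 of 1004 members (1.59%, 0.914 to 2.58%) carried UMIs of at least 2 of the 12 genes, against 355 of 5634 cells of the rest (6.30%, 5.68 to 6.97%). Without thinning the shares were 3.03% and 7.73%. Cluster 3 accounted for 303 of those 355 cells. Against the non-members of clusters 0, 1 and 2 the list's median was 0.26, 1.59 and 0.85, all on the other side of 0.

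Basal genes were split. Of 14, 0 were at least 2-fold higher and 4 lower, with a median of −0.64, which was 0.50 against the non-members of cluster 1. Krt14, a keratin of basal cells, stood at 620 CPM in members and 2018 in the rest, a log2 ratio of −1.70 (−1.76 to −1.65), and the hemidesmosome integrin Itgb4 at −1.49 (−1.75 to −1.23). Lamb3 and Itga3, a laminin chain and its integrin receptor, were the others. Krt5 was at 3755 and 3489 CPM (log2 ratio 0.11, 0.08 to 0.13) and Krt15 at 2464 and 1936 CPM (0.35, 0.32 to 0.38). Trp63, the basal transcription factor, stood at −0.35 (−0.49 to −0.22). Krt14 was lower than in non-members of clusters 0, 2 and 3, at −2.74, −1.12 and −2.30, and higher than in cluster 1, at 0.41. Of 8 contractile and stroma-like genes, 4 were at least 2-fold lower, with a median of −1.01, and Ctla2a had 2 UMIs in members and 147 in the rest.

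The lowest 10 genes were Ctla2a, Bmp3, Prss23, Ccnb1, Cdkn3, Evl, Scnn1b, Ect2, Smoc2 and Cdk1. The levels of Ctla2a, Bmp3, Prss23, Evl, Smoc2 and Scnn1b were highest in non-members of cluster 0, where Smoc2, a matrix protein, stood at 27.9 CPM against 2.0 in members. The levels of Ccnb1, Cdkn3, Ect2 and Cdk1 were highest in cluster 3.

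**Figure D4:**
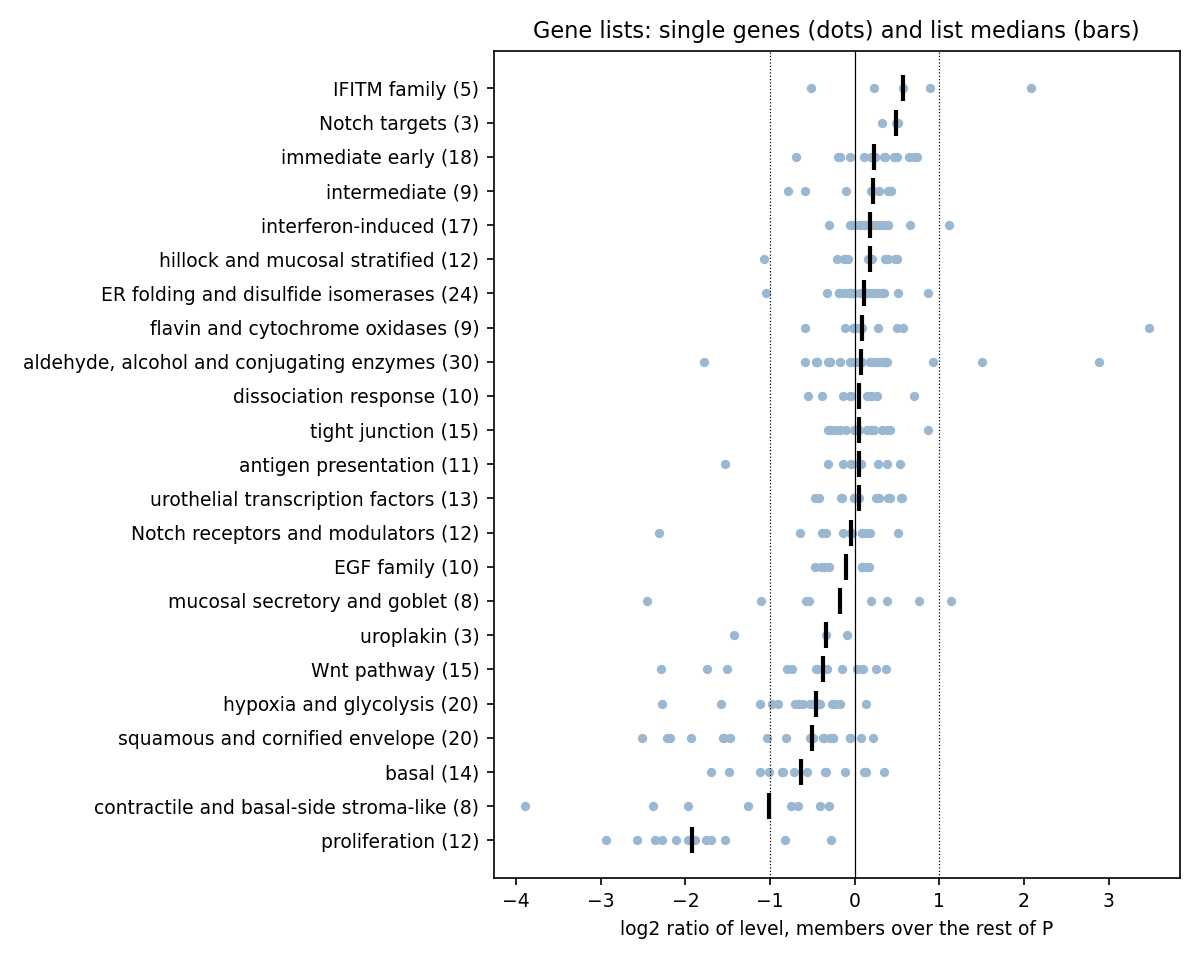
Log2 ratio of level, members over the rest of P, for genes with at least 20 UMIs (dots) and list medians (bars), with the number of genes in brackets and dotted lines at 2-fold. Genes of the score are left out. Lists with at least 3 such genes are drawn. Among these proliferation lies lowest, with a median of −1.93, and the IFITM family highest, at 0.58.

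Squamous genes were lower than in the rest. Of 20 cornified envelope and squamous genes with at least 20 UMIs, 8 were at least 2-fold lower and 0 higher, with a median of −0.51. Against cluster 1 the median was −1.14, and it was 2.16, 0.88 and 1.05 against clusters 0, 2 and 3. Sprr2f, a small proline-rich protein with close copies, stood at 24.5 CPM in members and 111 in the rest, and Krt17 at 14.7 and 56.1 CPM. Krt6a stood at −0.25 (−0.32 to −0.19). Sprr2f was lower than in non-members of cluster 1, at −3.28, and higher than in those of clusters 0, 2 and 3, at 3.29, 2.24 and 2.91.

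The medians of intermediate and mucosal genes lay slightly above the rest taken as a whole, and below cluster 1. Against its non-members the intermediate median was −0.55 and the hillock and mucosal median −0.54, and within it they were −0.20 and −0.08. Of 9 intermediate genes, 0 reached 2-fold against the rest and 6 had intervals above 0 (8.28% of all genes did), with a median of 0.21. Krt8 stood at 221 and 165 CPM (log2 ratio 0.42, 0.32 to 0.53) and Krt18 at 487 and 400 CPM, both keratins of simple epithelia. Psca, a surface protein, was lower at −0.79 (−0.83 to −0.75). It was at −1.88 against cluster 1 but at 4.41 and 4.35 against clusters 0 and 2. Among hillock and mucosal genes Krt4 stood at 0.47 (0.40 to 0.54), Aqp3, a water and glycerol channel, at 0.39, and Krt13 at −0.08, with a median of 0.18 over 12. Of the 12, 0 were at least 2-fold higher and 1 was lower (1.21% and 5.89% of all genes). Their intervals lay above 0 for 7 and below 0 for 4 (8.28% and 14.2% of all genes). Of 5 uroplakin genes 3 reached 20 UMIs. The 5 together stood at 12.9 CPM in members, on 58 UMIs, and 22.1 in the rest. The median of the 3 was −0.34, and 1.95, −1.34, 2.22 and 0.45 against the non-members of clusters 0, 1, 2 and 3. It was 0.51 in members with Fmo2, Agr2 or Cyp2f2 and −3.20 in those without. A uroplakin UMI was found at equal depth in 2.49% (1.62 to 3.65%) of members and 2.59% (2.2 to 3.04%) of the rest. The rest was uneven, with 0.932%, 5.44%, 0.809% and 1.21% of the non-members of clusters 0, 1, 2 and 3.

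Of 13 urothelial transcription factors, 0 reached 2-fold in either direction and the median was 0.05. Ehf, an epithelial ETS factor, stood at 310 and 211 CPM (log2 ratio 0.56, 0.47 to 0.64), Foxa1 at 53.6 and 36.6 CPM (0.55, 0.34 to 0.76) and Klf5 at 0.39 (0.32 to 0.46), while Elf3 stood at −0.43 (−0.54 to −0.31). The tight junction median was 0.05 over 15 genes, with Marveld2 at 0.87 (0.44 to 1.28). Against the non-members of clusters 0, 1, 2 and 3 this median was 1.06, −0.53, 0.63 and 1.25. Wnt pathway genes had a median of −0.38 over 15 (0.25 against cluster 1), with Wnt10a, a secreted ligand, at 7.79 and 38.0 CPM and a log2 ratio of −2.29 (−2.82 to −1.80). The median over 10 EGF family genes was −0.11, and 0.94, −0.50, 0.13 and 0.45 against the non-members of clusters 0, 1, 2 and 3.

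Genes of low oxygen were mostly lower in members, and immediate early genes mostly slightly higher. Of 20 hypoxia and glycolysis genes, 18 had intervals below 0 (14.2% of all genes did) and 3 were at least 2-fold lower. Their median was −0.46, with Ndrg1 at 41.6 and 124 CPM. It was −0.54, −0.69, −0.02 and −0.21 against the non-members of clusters 0, 1, 2 and 3, and so close to 0 against cluster 2. Of 18 immediate early genes, which answer within minutes to stimuli and to dissociation, 13 had intervals above 0 (8.28% of all genes did), 0 reached 2-fold and the median was 0.23, with Fos at 300 and 184 CPM. The immediate early median was 0.59, 0.14, 0.27 and 0.43 against the non-members of clusters 0, 1, 2 and 3. For members against non-members of their own cluster it was −0.16, 0.09, 0.13 and 0.35. The median over 10 dissociation response genes was 0.05. Markers of other cell types were scarce. The 4 erythroid markers had 0 UMIs in kept P cells, 0 of 10 tuft and neuroendocrine markers reached 20 UMIs, and 1 of 6 ciliated, 1 of 7 fibroblast and 2 of 6 endothelial markers did. The part of these genes in the results was not tested.

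Members were also compared with non-members of their own cluster. In cluster 2, 20 of 4102 genes (0.488%) were at least 2-fold higher and 9 (0.219%) lower. Ccr2 stood at 120 CPM in the 468 members and 13.9 in the 881 non-members, a log2 ratio of 3.12 (2.62 to 3.64). Cxcl5, Mal and Psca, genes that lie high in cluster 1, were also higher, with log2 ratios of 1.99 (1.49 to 2.52), 1.98 (1.34 to 2.64) and 1.53 (1.24 to 1.81). Cxcl5 is a neutrophil chemokine and Mal a protein of apical transport. Krt8 stood at 1.18 (0.94 to 1.43), Prss32 at 3.01 (2.13 to 3.99) and Krt14 at −1.23 (−1.34 to −1.13). In cluster 1, 17 of 7283 genes (0.233%) were at least 2-fold higher and 59 (0.81%) lower. Ccr2 stood at 104 and 26.5 CPM, a log2 ratio of 1.98 (1.72 to 2.23), and Cxcl15 at 1.59 (1.15 to 2.02). Mal and Psca were here lower, at −1.12 (−1.24 to −1.0) and −1.10 (−1.14 to −1.06), and Sprr2f at −2.56 (−2.87 to −2.27). Mal, Psca and Cxcl5 were chosen after their values had been seen. Ccr2 and Cxcl15 thus lay higher in members of both clusters, whereas Psca and Mal went in opposite directions. In clusters 0 and 3, with 94 and 15 members, 112 of 6161 genes (1.82%) and 47 of 1923 (2.44%) were at least 2-fold higher, and 383 (6.22%) and 172 (8.94%) lower, on few UMIs.

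In D, more cells reached the score. At equal depth 1565 of 4417 D cells (35.4%, 34 to 36.9%) were at or over the threshold score of P, 0.564, against 15.1% of P cells by its choice. The share was 51.2% (49.3 to 53.1%) in D cluster 0, led by Reg1, Krt1 and Lgi2. It was 10.5% in cluster 1, led by Acta2 and Cav1, and 12.3% in cluster 2, led by Ubd and holding Upk3a among its leading genes. Because Agr2 and Cyp2f2 were themselves among the leading genes of D cluster 0, its share is a description. The share in D changed with the genes of the score, from 22.1% without Cyp2f2 and 28.1% without Fmo2 to 46.0% without Ifitm1 and 59.4% without Dapl1. No replicate bears on this difference, and culture condition and library cannot be told apart.

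The cells over the threshold carried other genes in D than in P. Cyp2f2 was detected in 68.8% (66.4 to 71.0%) of such cells in D and 15% (12.8 to 17.3%) in P, and Fmo2 in 55.0% and 13.8%. Ifitm1 was detected in 10.1% (8.65 to 11.7%) in D and 62.8% (59.7 to 65.8%) in P, and Ccr2 in 1.15% and 11.8%. Over whole libraries Cyp2f2 stood at 342 CPM in D and 24.4 in P, and Fmo2 at 161 and 16.6 CPM. Ifitm1 stood at 24.4 CPM in D and 176 in P, and Ccr2 at 4.09 and 29.9 CPM. Agr2 differed less, with 13.2 CPM in D and 19.6 in P.

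The contrast of P was then taken in D, whose cells had not entered the choice of leading genes. The top 15% of D by the same score were 734 cells, 706 of them (96.2%) in D cluster 0. Of 9398 genes, 30 (0.319%) were at least 2-fold higher in these than in the other D cells and 221 (2.35%) lower. The 9 leading genes of P outside the score had positive ratios in D. So did 46.8% of 9340 genes with at least 100 UMIs in D and 20 in P. Of the 9, 1 reached 2-fold, Ccr2. Its log2 ratio was 2.14 (1.48 to 2.80), on 39 UMIs in the top cells and 44 in the others. At equal depth, 28 of the 29 D cells with Ccr2 were in D cluster 0. A contrast within that cluster was not taken, so this ratio cannot be told apart from the level of the cluster. Tspan13 stood at 0.40 (0.15 to 0.64), Naip5 at 0.77 (0.60 to 0.94), Smim6 at 0.60 (0.43 to 0.77) and Prss32 at 0.81 (0.49 to 1.13). The intervals of Cxcl15, at 0.15 (−0.30 to 0.58), and Ccdc88c, at 0.55 (−0.18 to 1.22), held 0. Lypd2 was higher in D too, at 2.20 (1.34 to 3.06). The Notch targets Hes1, Nrarp and Notch3 had log2 ratios of 0.42, 0.32 and 0.44 in D, and Krt14 of −1.42 (−1.46 to −1.38). Krt8 and Krt18 went the other way than in P, at −0.76 (−0.82 to −0.71) and −0.85 (−0.93 to −0.78).

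**Figure D5:**
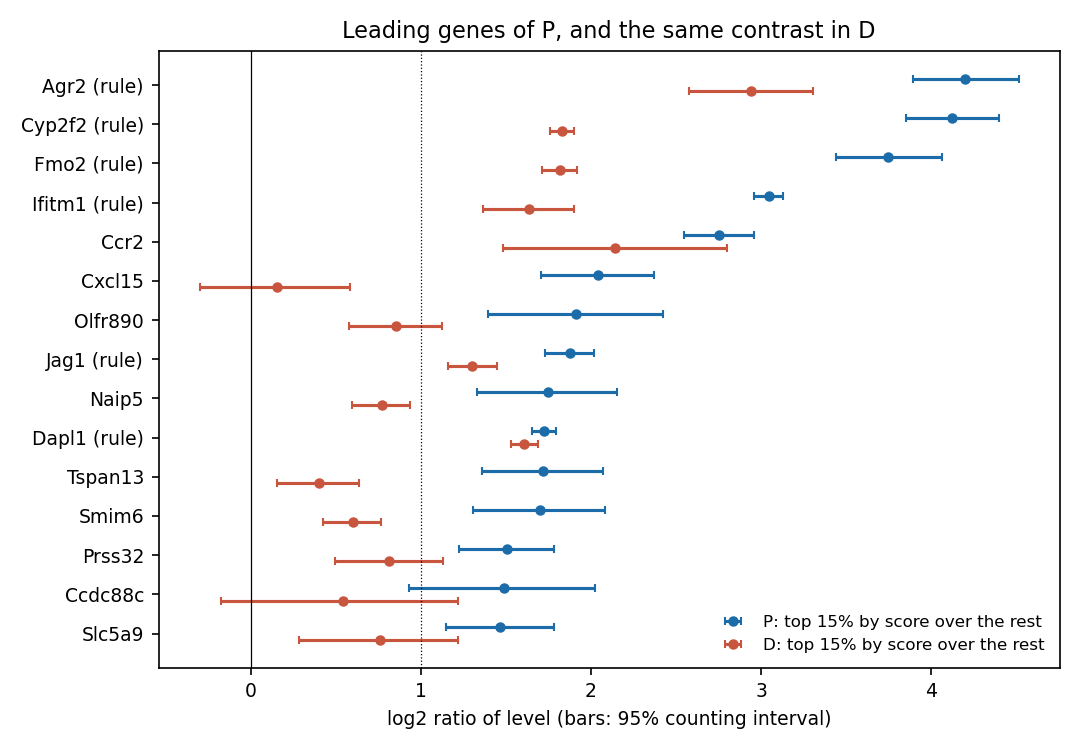
Log2 ratio of level, top 15% by score over the other cells, for the 15 leading genes of P (blue) and the same genes in D (red), with 95% counting intervals, a solid line at 0 and a dotted line at 2-fold. The 6 score genes chose the cells in both libraries, and among the 9 others the D intervals of Cxcl15 and Ccdc88c hold 0. Cxcl15 is at 2.04 in P and 0.15 in D, while Ccr2 is at 2.75 and 2.14 with intervals that overlap.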

How the data were processed

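Urothelial organoids were measured by single-cell RNA sequencing in 2 libraries, P and D. Per the submitters' processing notes and the study's methods, the authors used bcl2fastq 2.19.0 and Cell Ranger 3.0.2 with the GRCm38 transcriptome, and deposited raw UMI counts per gene and barcode with gene and barcode lists. Nothing had been normalized or filtered on mitochondrial content. Cell Ranger counts reads that map to a single gene, which affects close copies.

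Cells with over 800 genes and at most 12% mitochondrial UMIs were kept, as in the study. Members and gene lists (31, written from general knowledge) were chosen with earlier results of these data known. UMIs were summed over cells as CPM. Levels carry exact Poisson, shares exact binomial (Clopper-Pearson) and ratios exact conditional binomial intervals. Called genes had at least 100 UMIs and a 2-fold ratio, and listed genes at least 20 UMIs. Named genes were the list members, the 15 highest and 10 lowest ratios (0.5 UMI added for ranking), and the 10 with the largest smallest ratio over clusters. Clusters came from Seurat 5.3.0 in R 4.3.3 (2000 variable features, resolution 0.2, 25 components in P and 21 in D). Other steps used Python 3.11.15, numpy 2.4.6 and scipy 1.17.1. Ratios and intervals were run on simulated Poisson counts. This is the model the intervals assume, so the run checks the computation and not the variation between cells. Scrublet (scanpy 1.11.5) marked 0 of 6818 cells as doublets and had thus not worked, so doublets were kept. Names and coordinates came from GENCODE, promoter windows from RefSeq. Some single genes of the lists are counted but not reported here by name.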

Additional observations from a re-analysis of the deposited data

Results flagged for a closer look

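The IFITM family stood on opposite sides of 0 in both libraries. The median log2 ratio of its genes outside the score, top-scored over other cells, was 0.58 in P (5 genes) and −0.30 in D (3 genes), and the difference was not tested. It followed Ifitm3, whose log2 ratio was 0.58 (0.54 to 0.61) in P, against −0.30 (−0.38 to −0.22) in D.

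The 1376 P barcodes left out by the filter held UMIs of the same genes above the limit of 3. They carried 34 UMIs of Fmo2, 17 of Agr2, 330 of Ifitm1, 58 of Cyp2f2, 167 of Jag1, 312 of Dapl1 and 35 of Ccr2. Per 1000000 non-mitochondrial UMIs, Fmo2 stood at 17.1 (11.8 to 23.9) there and 17.6 (16 to 19.4) in kept cells, Agr2 at 8.53 (4.97 to 13.7) and 20.9 (19.1 to 22.7), and Ccr2 at 17.6 (12.2 to 24.4) and 31.8 (29.7 to 34.1). Whether these UMIs come from intact cells was not tested.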

How the results depend on the processing

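No paired analysis was possible because each condition held 1 library, so no replicate could be left out either. Of the 35 higher and 279 lower genes, the lower count moved to 156 with a score without Dapl1 and 185 without cycling cells, and both moved to 144 and 702 at a minimum of 20 UMIs. Set against the non-members of single clusters, 332 genes were higher (cluster 0), 139 lower (cluster 1), 116 higher and 5 lower (cluster 2), and 255 higher and 475 lower (cluster 3). In alternatives added after seeing the data, members of single clusters against their own non-members gave 112 higher (cluster 0), 17 and 59 (cluster 1), 20 and 9 (cluster 2) and 172 lower (cluster 3), where the 94 and 15 members of clusters 0 and 3 left few UMIs. Members with Fmo2, Agr2 or Cyp2f2 gave 63 higher and those without gave 23. The D share of 35.4% was 47.3% for the top 20%, 28.1% without Fmo2, 46.0% without Ifitm1, 22.1% without Cyp2f2 and 59.4% without Dapl1.

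Over 20 alternatives in the cells, score or scale, log2 ratios ranged from 2.21 to 3.01 for Ccr2, 1.39 to 2.52 for Cxcl15, 1.29 to 1.95 for Tspan13 and 0.81 to 1.52 for Slc5a9. Removing the median gene's shift moved every ratio by 0.04. Leaving out the 6% of cells with the highest Scrublet score was added because the planned doublet call could not be used. It moved neither count by 1.5 times. These scores came from the same run that had not worked, so the part of doublets in the counts remains untested.

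Of the list medians under alternatives, 82 took the other sign, 57 of them in comparisons by cluster. Squamous genes moved from −0.51 to 2.16, 0.88 and 1.05 against clusters 0, 2 and 3. Against cluster 1, basal genes moved from −0.64 to 0.50, intermediate genes from 0.21 to −0.55, hillock genes from 0.18 to −0.54, Wnt genes from −0.38 to 0.25 and Notch targets from 0.48 to −0.04. Proliferation moved to 0.26, 1.59 and 0.85 against clusters 0, 1 and 2 and to 0.20 within cluster 1, and the contractile list to 0.35 against cluster 1. Against clusters 0, 1 and 2, Ccnb1 moved to 1.11, 1.35 and 2.53, and Ect2 to 0.75 and 1.18 against clusters 0 and 1. Against clusters 1 and 2, Cdkn3 moved to 0.96 and 0.36 and Cdk1 to 1.11 and 0.36. Smoc2 moved to 0.65 against cluster 1 and Ctla2a to 0.36 against cluster 2. Within cluster 1 the values were 0.0698 for Ctla2a and 0.0698 for Ccnb1, 0.48 for Ect2, 0.37 for Smoc2 and 0.26 for Scnn1b. Cdk1 stood at 0.0166 within cluster 2 and Neurl3 at −0.43 within cluster 0, and Cxcl15 at −0.47 in members without the 3 genes. Most of these genes had fewer than 10 UMIs in members, and the cause was not tested. A list median could not be computed within clusters 0 or 3 where too many genes had 0 UMIs in members.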
